A study of Mus musculus with 6 samples.

Results

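The genes described here encode 10 ATPases that move, space or exchange nucleosomes and that do not belong to the SWI/SNF family of Brg1: Chd1, Chd2, Chd3, Chd4, Chd7, Chd8, Smarca1, Smarca5, Ep400 and Ino80. They were chosen by name from the CHD, ISWI and INO80 groups of chromatin remodellers, and all 10 were measured, among 15024 genes tested. The array carried 29 probes for them, of which 28 were tested, among 27841 probes in all. Gene expression was measured on 1-colour Agilent arrays in whole mouse embryos at embryonic day 8.5, with 1 array per sample. The 3 Brg1d/d embryo samples are conditional knockouts of Brg1 (gene symbol Smarca4), and the 3 Brg1fl/fl samples carry the floxed gene and serve as wild-type controls. All 6 came from dams that had received tamoxifen by intraperitoneal injection, so the controls were exposed to the drug as well. The sources used here give neither the Cre line nor the deleted exons, and do not say if each sample pools several embryos. The p-values therefore measure the spread between these samples.

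Chromatin remodellers use ATP to slide, evict or restructure nucleosomes, and each family pairs a related motor domain with its own targeting domains and partner subunits. CHD proteins carry chromodomains and act at promoters and enhancers, ISWI enzymes space nucleosomes evenly behind transcription and replication, and INO80-type enzymes, with Ep400 among them, exchange histone variants. In the early embryo these enzymes are needed for growth, for lineage choice and for the opening of chromatin in stem cells.

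Brg1 itself was lower in every Brg1d/d sample. At its brightest probe, A_51_P331702, the level was 1.54, 2.70 and 2.05 in Brg1d/d 1, 2 and 3, against 5.33, 4.49 and 4.53 in Brg1fl/fl 1, 2 and 3. A level is the log2 of the processed signal minus the array's 75th percentile, and levels of different probes are not comparable. The difference was -2.69 ± 0.36 (SE, n = 3 each, limma adjusted p = 0.0119), a 6.44-fold lower signal, and the other Smarca4 probes differed by -2.07 (adjusted p = 0.0135) and -2.25 (adjusted p = 0.00578). Brg1d/d 2 alone differed from the control mean by -2.08, -1.66 and -2.51 at these probes. These probes may lie outside the deleted part of the gene.

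The arrays differed in ways that touch every result below. Brg1d/d 2 was scanned on the same day as the 3 Brg1fl/fl arrays, while Brg1d/d 1 and Brg1d/d 3 each had a scan day of their own, and the brightest spike-in control stood at 12934 and 6905 units on those arrays, against 208550 to 241121 units on the other 4. For this reason the differences are given with a same-day value, which is Brg1d/d 2 minus the mean of the 3 Brg1fl/fl arrays and carries no replicate. It equals the estimate of a fit with scan day as a block, under which 0 of all 27841 probes passed at an adjusted p of 0.05 and 2995, or 10.8%, had an unadjusted p under 0.05 (limma). Each Brg1d/d array lay on a slide of its own and the controls shared 1 slide, so slide and genotype cannot be told apart. The embryos expressed the markers of heart, yolk sac, blood, nervous system and somites, and none of the 75 listed markers was below background on all 6 arrays. The 8 heart markers summed to 12.3 to 17.3 times the 75th percentile in Brg1d/d and 82.8 to 121.5 times in Brg1fl/fl, and the 8 neural markers to 5.86 to 7.01 and 9.62 to 26.3 times. Sums were also lower for the 8 somite markers (3.68 to 4.14 and 7.50 to 21.1 times) and the 7 endothelial markers (9.38 to 13.1 and 14.2 to 17.5 times). The same held for the 7 markers of maternal decidua (1.11 to 1.34 and 3.44 to 11.0 times). The sum of the 8 trophoblast markers was higher, at 27.2 to 37.0 times in Brg1d/d and 14.7 to 22.6 times in Brg1fl/fl. Single markers did not all follow these sums. Of the 3 decidua markers that passed (limma, adjusted p under 0.05) 2 were lower, and of the 5 neural markers 4 were. Those that passed in heart (6), somites (4) and endothelium (2) were all lower, and the 5 trophoblast markers that passed were all higher. In such bulk samples, fewer cells of a type and less RNA per cell cannot be told apart, and the part of tissue makeup in the results was not tested.

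Across the family, signals tended to be lower in Brg1d/d, but few differences passed the test across all probes. By the brightest probe of each gene, 0 of the 10 ATPase genes passed (limma, adjusted p under 0.05) and 1, Smarca5, had an unadjusted p under 0.05. Of all genes tested, 10.4% passed, 5.13% lower and 5.26% higher in Brg1d/d, and 32.4% had an unadjusted p under 0.05. The mean was lower in Brg1d/d for 7 of the 10 genes, and for 8 with median scaling or normexp, under which Chd8 changed sign, against 44.6% of all genes. Chd1, Chd7, Smarca1 and Smarca5 were lower in all 3 Brg1d/d samples than in any Brg1fl/fl sample, and no member was higher in all 3. Over all genes, 41.8% had groups that did not overlap, 18.7% with the Brg1d/d samples lower. The median difference of the 10 genes was -0.28, against 0.08 for all genes, and its same-day counterpart was -0.11, against 0.01.

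**Figure D1:**
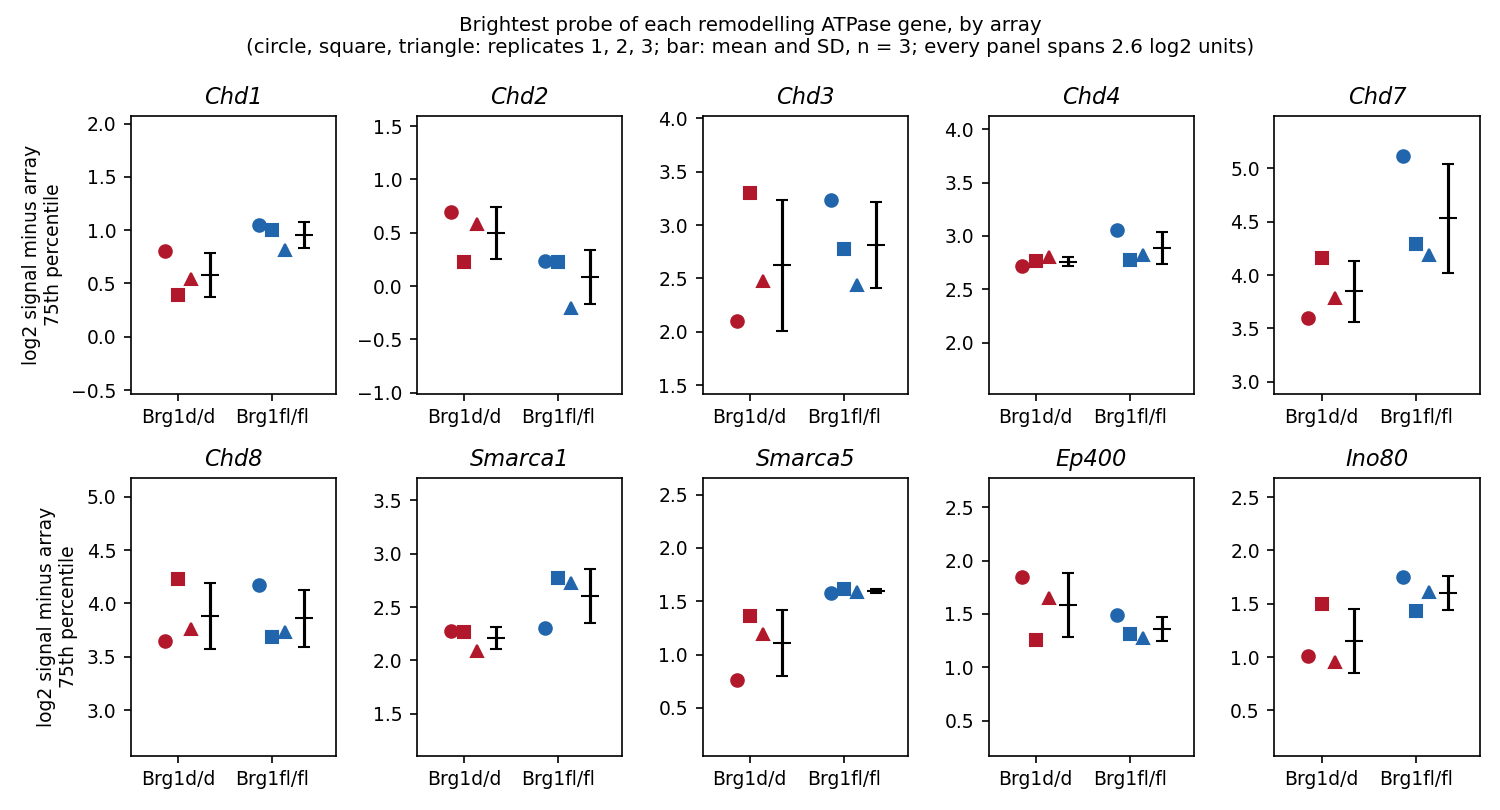
Level of the brightest probe of each ATPase gene (log2 scale, relative to the 75th percentile of its array) on every array, Brg1d/d on the left of each panel and Brg1fl/fl on the right, with mean and SD (n = 3). The Chd1, Chd7, Smarca1 and Smarca5 panels show no overlap between genotypes, and in the Smarca5 panel the controls lie within 1.58 to 1.62.

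Read probe by probe, 1 of 28 passed, in Smarca5, where 9.21% of all probes passed, 4.18% lower and 5.03% higher. An unadjusted p under 0.05 was found for 10 of the 28, of which 9 were lower and 1 higher in Brg1d/d, against 31.6% of all probes. The mean was lower at 22 of 28 probes (44.4% of all probes), and the median difference over the 28 was -0.45, with a same-day median of -0.15. All probes together had medians of 0.08 and 0.03. Groups did not overlap at 11 probes that were lower and 1 that was higher, where 17.0% and 22.2% of all probes did so, 39.2% together. The 11 lie in Chd1, Chd7, Smarca1, Smarca5 and Ino80 only, and include every Smarca1 and Smarca5 probe. Some of these overlap or lie close together. Probes of 1 gene are not independent readings, so these counts of probes do not measure separate genes. The differences ran from -1.20 to 0.73, with SEs of 0.15 to 0.49, and the same-day values from -0.58 to 0.49.

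**Figure D2:**
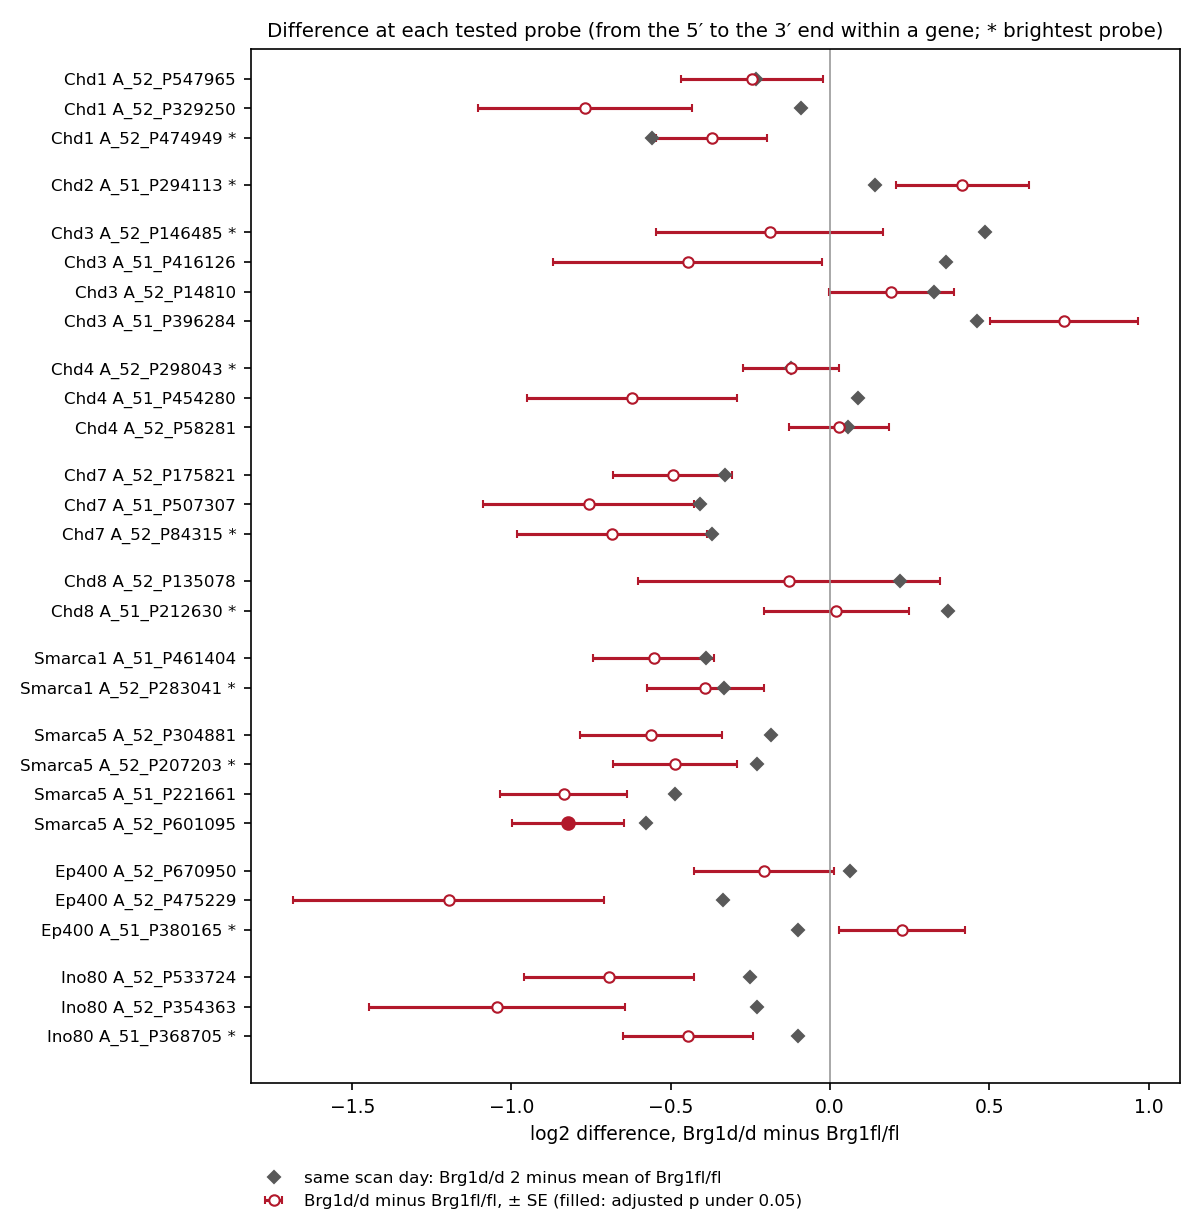
Difference at each of the 28 tested probes (log2, Brg1d/d minus Brg1fl/fl, ± SE, n = 3 each) with the same-day value as a diamond. The filled point is Smarca5 A_52_P601095, at -0.82, and all 4 Smarca5 probes lie below 0 by both measures.

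Smarca5, the ISWI motor often called SNF2H, which spaces nucleosomes and is required in the early mouse embryo, was lower in all Brg1d/d samples at all 4 of its probes and fell at 1 of them. The gene lies on chromosome 8, minus strand, and its probes form overlapping pairs. The upstream pair covers chr8:79248505-79248584 and the downstream pair chr8:79240118-79240189 (build mm7, array annotation). The upstream probes overlap over 40 bases and are shown because 3 bases differ within the overlap. The capitals mark those bases, the substitutions C7T, C17G and T24G from A_52_P207203 to A_52_P304881, counted from 1 at the 5′ end of A_52_P207203.
A_52_P207203: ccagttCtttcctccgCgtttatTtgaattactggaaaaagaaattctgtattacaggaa
A_52_P304881: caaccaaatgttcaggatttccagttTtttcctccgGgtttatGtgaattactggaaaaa
The downstream probes share 48 bases, and the first 30 of A_52_P601095 lie within that stretch, at chr8:79240148-79240177.
A_52_P601095, first 30 bases: tttgtgaggattgtggctttttatcagcta
Probes that overlap are placed on the same stretch of the gene, so the 4 probes amount to a pair of separate sites. What the 3 differing bases do to the signals of the upstream probes was not tested.

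At A_52_P601095, the probe nearest the 3′ end, the level was -0.19, 0.27 and -0.0056 in Brg1d/d 1, 2 and 3, against 0.85, 0.93 and 0.76 in Brg1fl/fl 1, 2 and 3. All Brg1d/d values lay below all control values, with Brg1d/d 2 the nearest to them. Smarca5 RNA fell by 0.82 ± 0.18 on the log2 scale at this probe (SE, n = 3 each, limma adjusted p = 0.0381), which is 1.77-fold. The same-day value was -0.58. The call was lost with scan day or the spike-in split as a block, which both leave only Brg1d/d 2 and give this same difference. It was also lost with no filter on dim probes (limma adjusted p = 0.0774), and with each array centred within classes of probe GC content (-0.63, 0.0519). Leaving out Brg1d/d 1 or 3, or Brg1fl/fl 2 or 3, also ended it, with differences of -0.71, -0.81, -0.78 and -0.87 and adjusted p of 0.0778 to 0.154.

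Its overlapping neighbour A_51_P221661 stood at -0.29, 0.30 and -0.15 in Brg1d/d 1, 2 and 3, against 0.76, 0.90 and 0.71 in Brg1fl/fl 1, 2 and 3. The groups again did not overlap, and the difference of -0.84 ± 0.20 missed the threshold (adjusted p = 0.0507), with a same-day value of -0.49. The brightest Smarca5 probe, A_52_P207203 in the upstream pair, gave 0.76, 1.37 and 1.20 in Brg1d/d, against 1.58, 1.62 and 1.59 in Brg1fl/fl. The control arrays were almost level here, while the Brg1d/d arrays were spread out below them. The difference was -0.49 ± 0.19 (adjusted p = 0.147), with a same-day value of -0.23. Its partner A_52_P304881, which differs from it at the printed bases, gave 0.17, 0.96 and 0.62 in Brg1d/d, against 1.14, 1.15 and 1.16 in Brg1fl/fl, a difference of -0.56 ± 0.22 (adjusted p = 0.145) with a same-day value of -0.19. Between the most upstream and the most downstream Smarca5 probe, 8407 bases apart, the difference in response was 0.26 (exact two-sided permutation p = 0.2). With 3 against 3 samples this test cannot go below 0.1.

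Over the 6 arrays, the brightest Smarca5 probe was most closely followed by Jmjd1c, Lypd6 and Chek1 among 14196 genes compared. The root mean square distance between the centred values was 0.0448, 0.0536 and 0.0606 log2 units. Their differences were -0.48, -0.47 and -0.48, and none passed (adjusted p = 0.136, 0.137 and 0.169).

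Smarca1, the second ISWI motor, often called SNF2L and best known from the nervous system, lies on the X chromosome and has 2 probes that lie 320 bases apart. At the brighter one, A_52_P283041 (chrX:42901981-42902040, minus strand), the level was 2.27, 2.27 and 2.09 in Brg1d/d 1, 2 and 3, against 2.31, 2.77 and 2.73 in Brg1fl/fl 1, 2 and 3. The groups did not overlap, but Brg1fl/fl 1 was only just above the highest Brg1d/d value. The difference was -0.39 ± 0.18 (adjusted p = 0.193), and the same-day value of -0.33 was close to it. At A_51_P461404 the level was 1.63, 1.91 and 1.69 in Brg1d/d, against 1.99, 2.43 and 2.46 in Brg1fl/fl, again with Brg1fl/fl 1 the lowest control. The difference was -0.55 ± 0.19 (adjusted p = 0.111), with a same-day value of -0.39, and it passed without Brg1fl/fl 1 (-0.71, adjusted p = 0.0415). Both ISWI motors were thus lower in every Brg1d/d sample than in any Brg1fl/fl sample at all of their probes. Of all probes on the array that were tested, 17.0% were lower in this way, and of all genes by the brightest probe, 18.7%. Probes of 1 gene are not independent, and those of Smarca5 and Smarca1 overlap or lie close together.

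Chd7, an enhancer-bound CHD enzyme that acts in neural crest, ear and heart development and is mutated in human CHARGE syndrome, had the largest difference among the brightest probes. That probe, A_52_P84315 (chr4:8793693-8793752, plus strand), measured 3.59, 4.16 and 3.78 in Brg1d/d 1, 2 and 3, against 5.12, 4.29 and 4.19 in Brg1fl/fl 1, 2 and 3. All Brg1d/d values lay below the controls, with Brg1d/d 2 just under Brg1fl/fl 3 and Brg1fl/fl 1 well above the rest. The difference was -0.68 ± 0.30 (adjusted p = 0.170), with a same-day value of -0.37, and it was -0.39 without Brg1fl/fl 1. The other Chd7 probes lie 114106 and 115136 bases upstream. A_52_P175821 gave -4.35, -4.14 and -4.42 in Brg1d/d, against -3.54, -3.88 and -4.02 in Brg1fl/fl, a difference of -0.49 ± 0.19 without overlap (adjusted p = 0.134) and a same-day value of -0.33. A_51_P507307 gave -2.59, -1.75 and -1.95 in Brg1d/d, against -0.87, -1.27 and -1.87 in Brg1fl/fl, a difference of -0.76 ± 0.33 with overlap (adjusted p = 0.172) and a same-day value of -0.41. At all 3 probes Brg1fl/fl 1 was the highest array.

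Brg1fl/fl 1 also differed from the other controls in tissue markers. All 8 heart, all 8 neural, all 6 neural crest and all 8 somite markers were higher in it than in the mean of the other 2 controls, by medians of 0.74, 0.86, 0.98 and 1.25 on the log2 scale. Yolk sac and primitive erythroid markers went the other way and further, with 0 of 8 higher in each list and medians of -2.58 and -2.85. The yolk sac markers summed to 313 to 367 times the 75th percentile in Brg1d/d and 93.0 to 412 times in Brg1fl/fl, and the erythroid markers to 67.3 to 81.4 and 73.2 to 288 times, with Brg1fl/fl 1 the lowest control in both. The 6 neural crest markers, all well above background, summed to 3.58 to 3.96 times the 75th percentile in Brg1d/d and 3.66 to 7.11 times in Brg1fl/fl. The part of these tissues in the Chd7 values was not tested.

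Chd1, which binds methylated histone tails at active promoters, travels with RNA polymerase and keeps the chromatin of embryonic stem cells open, was measured by 3 probes on chromosome 17. The brightest, A_52_P474949 (chr17:14009226-14009285, plus strand), gave 0.81, 0.40 and 0.54 in Brg1d/d 1, 2 and 3, against 1.05, 0.998 and 0.81 in Brg1fl/fl 1, 2 and 3. The groups touched without overlapping, and here Brg1d/d 2 was the lowest array. The difference was -0.37 ± 0.17 (adjusted p = 0.192), and the same-day value of -0.56 was the larger one. The most upstream probe, A_52_P547965, gave 0.066, 0.30 and 0.49 in Brg1d/d, against 0.91, 0.37 and 0.31 in Brg1fl/fl, with overlap, a difference of -0.24 ± 0.22 (adjusted p = 0.471) and a same-day value of -0.23.

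The middle Chd1 probe, A_52_P329250, has its 60 bases spread over 1369 bases of the genome (chr17:14001754-14003122, plus strand), as a probe across an exon junction does. It is shown as the Chd1 probe whose value turned most on single arrays.
Chd1 A_52_P329250: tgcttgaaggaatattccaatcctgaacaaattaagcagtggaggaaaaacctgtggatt
It measured -3.05, -1.72 and -2.42 in Brg1d/d 1, 2 and 3, against -1.59, -1.80 and -1.49 in Brg1fl/fl 1, 2 and 3. Brg1d/d 1 and 3 were below every control and Brg1d/d 2 lay among them. The difference was -0.77 ± 0.34 (adjusted p = 0.172), and the same-day value was -0.091. Without Brg1d/d 1 the difference was -0.44 (adjusted p = 0.383), and without Brg1d/d 2 it was -1.11 and passed (adjusted p = 0.0397).

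Chd2, the closest relative of Chd1, which acts at active genes and is known from human epilepsy, was 1 of 3 members with a higher mean in Brg1d/d. Its single probe, A_51_P294113 (chr7:69280359-69280418, minus strand), is listed on the array under the older name 5630401D06Rik. The level was 0.70, 0.22 and 0.58 in Brg1d/d 1, 2 and 3, against 0.24, 0.22 and -0.21 in Brg1fl/fl 1, 2 and 3. Brg1d/d 2 lay within the control range, and the difference of 0.42 ± 0.21 did not pass (adjusted p = 0.216), with a same-day value of 0.14. Thus the closely related Chd1 and Chd2 had differences of opposite sign, neither of which passed.

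Chd3 and Chd4 are the alternative motors of the NuRD complex, which joins remodelling to histone deacetylation. The genotypes differed by less than the SE at the brightest Chd4 probe, A_52_P298043 (chr6:125122873-125126133, plus strand), whose 60 bases span 3261 bases of the genome.
Chd4 A_52_P298043: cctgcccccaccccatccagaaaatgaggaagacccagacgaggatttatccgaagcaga
The level there was 2.72, 2.76 and 2.80 in Brg1d/d 1, 2 and 3, against 3.05, 2.78 and 2.82 in Brg1fl/fl 1, 2 and 3. The groups overlapped, and the difference was -0.12 ± 0.15 (adjusted p = 0.593), with a same-day value of -0.12. With each array centred within GC classes it was -0.41 ± 0.17 and did not pass (adjusted p = 0.161). A_52_P58281, the most downstream probe, spans 5143 bases and gave a difference of 0.029 ± 0.16 (limma adjusted p = 0.912) and a same-day value of 0.057. Between them, A_51_P454280 measured -1.07, 0.017 and -1.01 in Brg1d/d, against 0.19, -0.051 and -0.34 in Brg1fl/fl. Brg1d/d 1 and 3 were again the low arrays and Brg1d/d 2 was inside the control range, so the difference was -0.62 ± 0.33 (adjusted p = 0.237), the same-day value was 0.086, and without Brg1d/d 2 the difference was -0.97 (adjusted p = 0.0374).

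The 4 Chd3 probes, on chromosome 11, did not point one way over all arrays, while their same-day values were all positive. The brightest, A_52_P146485 (chr11:69445712-69446319, minus strand), is the most upstream and spans 608 bases.
Chd3 A_52_P146485: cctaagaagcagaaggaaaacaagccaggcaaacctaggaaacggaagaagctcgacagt
It measured 2.10, 3.30 and 2.48 in Brg1d/d 1, 2 and 3, against 3.23, 2.78 and 2.43 in Brg1fl/fl 1, 2 and 3. Brg1d/d 2 was the highest of the 6 arrays and Brg1d/d 1 the lowest, and the difference was -0.19 ± 0.36 (adjusted p = 0.735), with a same-day value of 0.49. The most downstream probe, A_51_P396284, gave 2.17, 1.77 and 2.18 in Brg1d/d, against 1.70, 1.14 and 1.07 in Brg1fl/fl. It was the only member probe at which all Brg1d/d values lay above all controls, with a difference of 0.73 ± 0.23 (adjusted p = 0.0930), a same-day value of 0.46, and an adjusted p of 0.0321 without Brg1fl/fl 1. The 2 probes in between differed by -0.45 ± 0.42 and 0.19 ± 0.20, with overlap, and did not pass. Their same-day values were 0.36 and 0.33, the first of the opposite sign.

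Chd8, which restrains Wnt and p53 target genes and is mutated in human autism, differed by less than the SE at both of its probes on chromosome 14. At the brighter, A_51_P212630 (chr14:47532165-47532224, minus strand), the level was 3.65, 4.23 and 3.76 in Brg1d/d 1, 2 and 3, against 4.17, 3.69 and 3.73 in Brg1fl/fl 1, 2 and 3. Each group held 1 high and 2 lower arrays, and the difference was 0.020 ± 0.23 (adjusted p = 0.960), with a same-day value of 0.37. A_52_P135078 gave -3.03, -2.22 and -2.46 in Brg1d/d, against -1.38, -2.96 and -2.98 in Brg1fl/fl, with Brg1fl/fl 1 far above the rest and a difference of -0.13 ± 0.47 (adjusted p = 0.869). Its same-day value had the opposite sign, at 0.22.

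Ino80, the motor of the complex of that name, which acts in transcription, replication and repair, was lower in mean at all 3 of its probes, listed on the array as Inoc1. The brightest, A_51_P368705 (chr2:119114157-119114216, minus strand), is also nearest the 3′ end and gave 1.01, 1.50 and 0.95 in Brg1d/d 1, 2 and 3, against 1.75, 1.43 and 1.61 in Brg1fl/fl 1, 2 and 3. Brg1d/d 2 lay among the controls and the other Brg1d/d arrays below them. The difference was -0.45 ± 0.20 (adjusted p = 0.186), with a same-day value of -0.10. The upstream probes are shown because their differences were larger and were carried by Brg1d/d 1 and 3. They lie at chr2:119123739-119123798 and chr2:119147677-119147736.
Ino80 A_52_P354363: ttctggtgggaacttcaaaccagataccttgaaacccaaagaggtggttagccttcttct
Ino80 A_52_P533724: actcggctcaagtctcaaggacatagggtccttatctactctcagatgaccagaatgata
A_52_P354363 measured -1.90, -0.30 and -1.16 in Brg1d/d 1, 2 and 3, against 0.22, -0.16 and -0.29 in Brg1fl/fl 1, 2 and 3. All Brg1d/d values were below the controls, Brg1d/d 2 only barely, and the difference was -1.05 ± 0.40 (adjusted p = 0.137), with a same-day value of -0.23. It was -0.66 without Brg1d/d 1 (adjusted p = 0.311), and without Brg1d/d 2 it was -1.45 and passed (adjusted p = 0.0333). A_52_P533724 gave -3.91, -2.93 and -3.28 in Brg1d/d, against -2.56, -2.75 and -2.73 in Brg1fl/fl, a difference of -0.69 ± 0.27 without overlap (adjusted p = 0.136) and a same-day value of -0.25. Without Brg1d/d 1 the difference was -0.42.

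Ep400, the large motor of the TIP60 acetyltransferase complex, had probes with differences of both signs, none of which passed. The lowest difference of the 28 probes was at A_52_P475229 (chr5:109895499-109896068, minus strand), which spans 570 bases and also has their lowest GC content, 28.3%.
Ep400 A_52_P475229: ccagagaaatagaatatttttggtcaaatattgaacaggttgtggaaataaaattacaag
It measured -0.45, 1.33 and 0.52 in Brg1d/d 1, 2 and 3, against 2.27, 1.49 and 1.23 in Brg1fl/fl 1, 2 and 3. Brg1d/d 2 overlapped the controls, and Brg1d/d 1 and Brg1fl/fl 1 were the extremes. The difference was -1.20 ± 0.49, or 2.29-fold, and did not pass (adjusted p = 0.153), and the same-day value was -0.34. Without Brg1d/d 1 the difference was -0.74, and without Brg1d/d 2 it was -1.63. The brightest probe, A_51_P380165 (chr5:109831052-109831111), is the most downstream. It gave 1.85, 1.26 and 1.65 in Brg1d/d, against 1.49, 1.31 and 1.28 in Brg1fl/fl, with overlap and a difference of 0.23 ± 0.20 (limma adjusted p = 0.450). It was 0.095 without Brg1d/d 1, and the same-day value, -0.10, had the opposite sign. A_52_P670950 differed by -0.21 ± 0.22 (adjusted p = 0.537), with a same-day value of 0.063. A_51_P508853 was well above background on 0 of 6 arrays and was not tested.

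The same arrays recurred as the low ones. Against the mean of the 3 controls, the 28 probes had a median deviation of -0.63 in Brg1d/d 1 and -0.51 in Brg1d/d 3, and of -0.15 in Brg1d/d 2. Over all probes these medians were 0.11, 0.09 and 0.03. Brg1d/d 1 was the lowest of the 6 arrays at 19 of the 28 probes (18.6% of all probes), and Brg1fl/fl 1 was the highest at 14 (29.1% of all probes). At 7 of the 28, Brg1d/d 1 and 3 lay below all controls while Brg1d/d 2 lay within their range, which held for 6.36% of all probes. Brg1d/d 1 and 3 are the arrays with their own scan days and the low spike-in signal. With scan day as a block, 0 of the 28 probes passed and 0 had an unadjusted p under 0.05 (10.8% of all probes). With the spike-in split as a block, 0 passed and 1 had an unadjusted p under 0.05 (limma), against 0.575% and 13.2% of all probes.

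**Figure D3:**
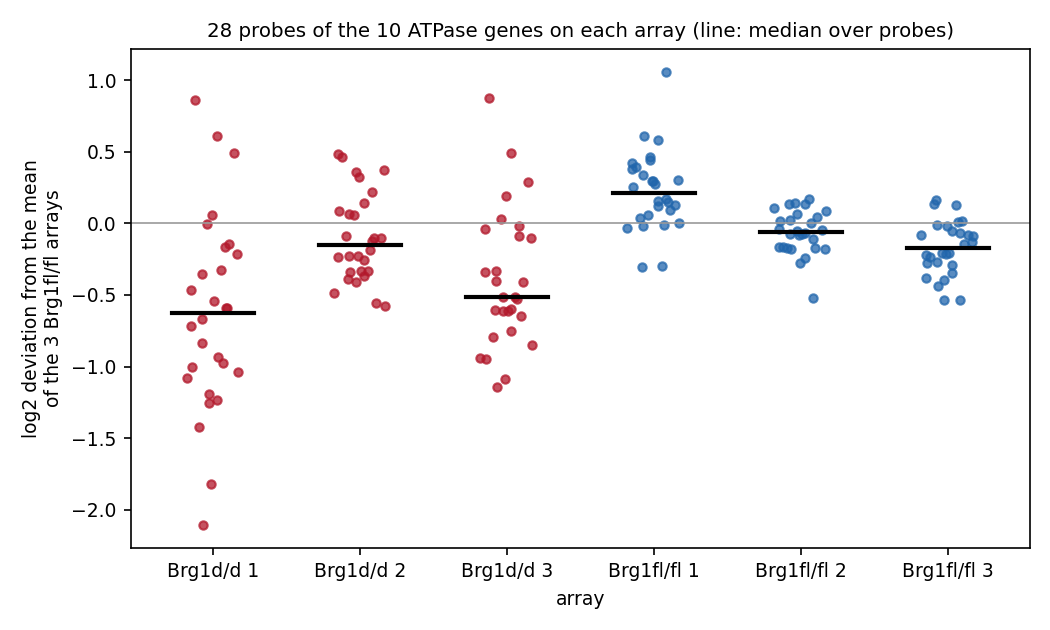
Deviation of the 28 ATPase probes on each array from the mean of the 3 Brg1fl/fl arrays (log2, 1 point per probe, line at the median). The medians of Brg1d/d 1 and 3 lie at -0.63 and -0.51, that of Brg1d/d 2 at -0.15, and those of the Brg1fl/fl arrays between -0.17 and 0.21.

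Probe base composition moved with the differences too. Over all probes the median difference was -0.11 at a GC content of 40% or under, 0.15 between 40% and 50%, and 0.41 above 50%, with same-day medians of -0.05, 0.06 and 0.17. The ATPase probes, with 28.3% to 55.0% GC, had medians of -0.56 (13 probes), -0.45 (9 probes) and -0.13 (6 probes) in these classes, each below that of all probes in the class. Their same-day medians were -0.23, -0.23 and 0.29, of which the last was above that of all probes. After each array was centred within GC classes, 23 of the 28 probes had a lower mean in Brg1d/d, against 43.6% of all probes. Of the 28, 0 passed and 9 had an unadjusted p under 0.05 (limma), against 8.52% and 29.0% of all probes. The median difference of the 10 genes was then -0.28, against 0.07 for all genes.

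**Figure D4:**
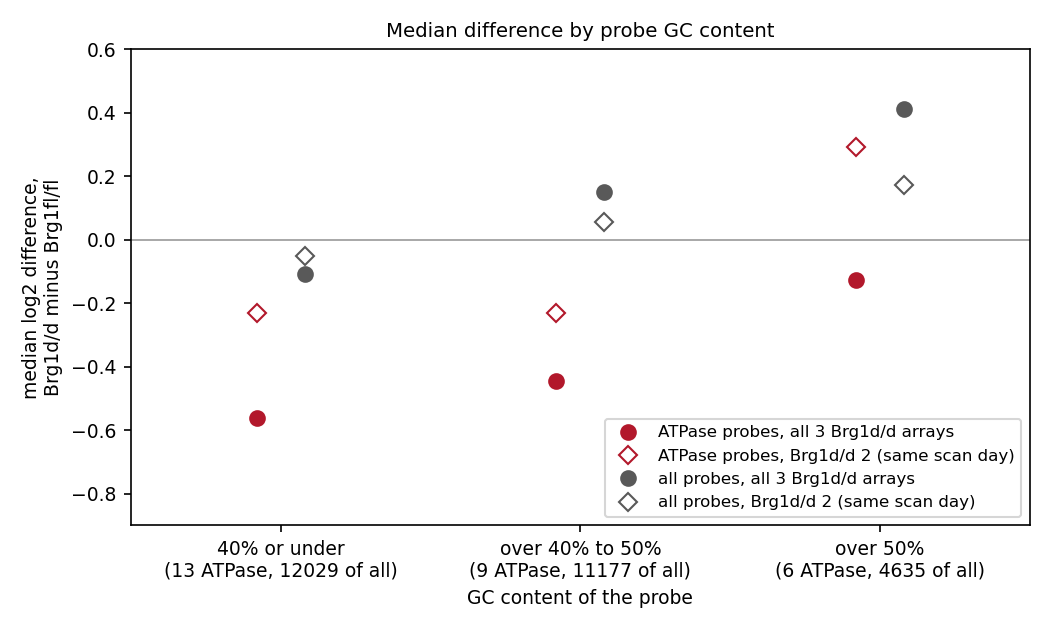
Median log2 difference (Brg1d/d minus Brg1fl/fl) of the ATPase probes and of all probes in 3 classes of probe GC content, over all Brg1d/d arrays (circles) and for Brg1d/d 2 alone (diamonds). The medians of all probes climb from -0.11 to 0.41 across the classes, and the ATPase circles, at -0.56, -0.45 and -0.13, lie below them in each class.

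Probes of 1 gene often differed. Of the 9 members with several probes, 5 had all their differences of 1 sign, and Chd3, Chd4, Chd8 and Ep400 did not. The response of the most upstream probe minus that of the most downstream one was compared for these 9 genes in 1 exact two-sided permutation test each. By this exact test it was -0.92 in Chd3 (p = 0.3), -0.43 in Ep400 (p = 0.3), -0.25 in Ino80 (p = 0.3) and -0.16 in Smarca1 (p = 0.1), and the other genes lay between -0.15 and 0.26. The p-values adjusted over the 9 genes were 0.54 to 0.9, and 3 against 3 samples cannot go below 0.1. In Chd3 the contrast of the probes within an array was -0.069, 1.53 and 0.29 in Brg1d/d 1, 2 and 3, against 1.53, 1.64 and 1.36 in Brg1fl/fl 1, 2 and 3. Thus Brg1d/d 2 sat with the controls and the other Brg1d/d arrays stood apart. For the 6 members whose probes lie at least 20 kb apart the median was -0.20, with a same-day value of 0.031, and for the 1386 genes of the whole array with such probes it was 0.04 and 0.13.

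The partner subunits and relatives of these ATPases were read from 6 lists, and 1 gene in them passed. The counts stand against the 10.4% of all genes that passed and the 32.4% with an unadjusted p under 0.05. In the NuRD complex, which uses Chd3 or Chd4 as motor, 1 of 12 measured subunits rose and 0 fell. The list median was 0.04, or -0.06 by the same-day measure, and 4 subunits had an unadjusted p under 0.05, 2 of them higher and 2 lower. The gene that rose was Mta3, a scaffold subunit of NuRD. It stood at 3.35, 2.76 and 3.16 in Brg1d/d 1, 2 and 3, against 1.75, 2.11 and 2.30 in Brg1fl/fl 1, 2 and 3, without overlap. The difference was 1.04 ± 0.23, or 2.06-fold (adjusted p = 0.0412), with a same-day value of 0.71, and the other Mta3 probe gave 1.12 (adjusted p = 0.0206). The first call was lost under median scaling (limma adjusted p = 0.0641), with no filter (0.0821), and without Brg1d/d 1 or 3 or any of the Brg1fl/fl arrays (0.0515 to 0.147). It was also lost with scan day or the spike-in split as a block, which both leave only Brg1d/d 2. The largest difference of the list, chosen for mention after its value was seen, was that of the deacetylase Hdac2, at -1.24 ± 0.37 without overlap (adjusted p = 0.0825) and with a same-day value of -0.46.

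Among the 13 measured subunits of the INO80 complex, 0 passed (limma) and 5 had an unadjusted p under 0.05, all of them higher in Brg1d/d. The mean was higher for 11 of 13, against 55.4% of all genes. The median difference was 0.39 and 0.28 by the same-day measure, against 0.08 and 0.01 for all genes. After GC centring the median was 0.21, with 10 of 13 higher. The subunit with the smallest p was Nfrkb, at 0.25, -0.24 and 0.19 in Brg1d/d 1, 2 and 3, against -0.49, -0.67 and -0.69 in Brg1fl/fl 1, 2 and 3. Its difference was 0.68 ± 0.19 without overlap (adjusted p = 0.0708), the same-day value was 0.37, and its other probes gave 0.72 and -0.013. The motor Ino80 itself, at -0.45 with a same-day value of -0.10, thus had the opposite sign to most of its partners. None of these differences passed. Ino80d was not measured.

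Of 9 ISWI partner genes, 0 passed and 2 had an unadjusted p under 0.05 (limma), 1 higher and 1 lower. The list median was -0.20, or -0.08 by the same-day measure. The lower gene was Baz1a, the largest difference of the list, chosen for mention after its value was seen. It differed by -0.98 ± 0.39 with overlap (limma adjusted p = 0.148), and its same-day value was -0.08. Baz2a, the partner of Smarca5 in the nucleolar complex that silences ribosomal DNA, had the smallest p. It measured 3.12, 2.82 and 2.93 in Brg1d/d 1, 2 and 3, against 2.47, 2.19 and 2.32 in Brg1fl/fl 1, 2 and 3. The difference was 0.63 ± 0.16 without overlap (adjusted p = 0.0615), the same-day value was 0.49, and other probes of the gene ran from -0.40 to 0.94. Of 16 subunits of the TIP60 and SRCAP complexes, the partners of Ep400 and its relative Srcap, 0 passed. An unadjusted p under 0.05 (limma) was found for 2, both higher in Brg1d/d. The list median was -0.09, or 0.0045 by the same-day measure. The acetyltransferase Kat5 differed by 0.47 ± 0.16 (adjusted p = 0.106), with a same-day value of 0.36.

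The 4 other CHD genes had 0 passing and 2 with an unadjusted p under 0.05 (limma), 1 higher and 1 lower. Their median was 0.13, or 0.11 by the same-day measure. The smallest p was that of Chd6, at -1.71, -1.64 and -1.60 in Brg1d/d 1, 2 and 3, against -0.95, -1.01 and -1.43 in Brg1fl/fl 1, 2 and 3. Its difference was -0.52 ± 0.18 without overlap (adjusted p = 0.111), the same-day value was -0.52, and its 5 other probes ran from -0.45 to 0.36. Among 14 other SNF2-type ATPases 0 passed and 2, both lower, had an unadjusted p under 0.05 (limma). Their median was -0.14, or -0.15 by the same-day measure. Hells, which is needed for DNA methylation at repeats, differed by -0.77 ± 0.21 (adjusted p = 0.0686) with a same-day value of -0.38.

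**Figure D5:**
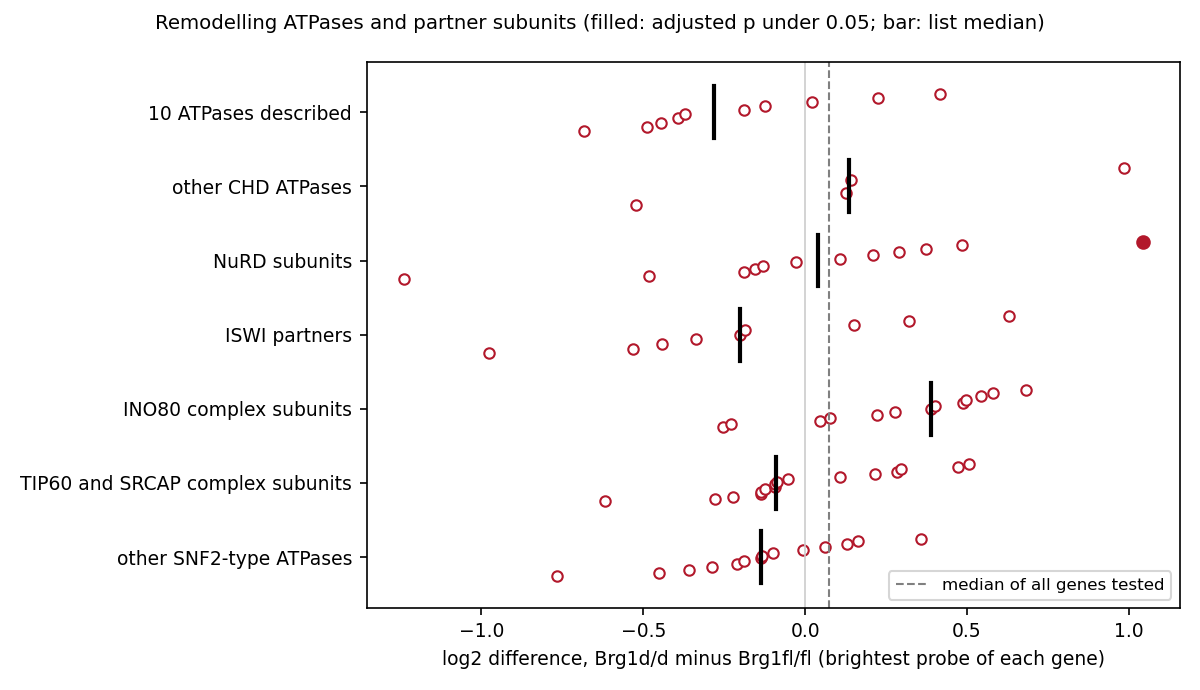
Log2 difference (Brg1d/d minus Brg1fl/fl, brightest probe) of the 10 ATPase genes and of the genes in 6 lists of partners and relatives, with the list medians as bars. The single filled point is Mta3, at 1.04, and the medians run from -0.28 for the 10 ATPases to 0.39 for the INO80 subunits.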

How the data were processed

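Per the labels' protocols, RNA was purified from whole embryos with a Qiagen kit. Each sample used 250 ng of total RNA and 1 Agilent array, with the dye Cy3. The deposited scanner files hold intensity values that the authors made with Agilent Feature Extraction 9.5, per the file headers, with the local background and 0 or 1 flags (other) for outlier, saturated and well-measured spots. The deposited series table, intensity values on a linear scale, matched the processed signal at every spot to a relative 0.0001. No column belonged to other samples.

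Control and outlier spots (53 to 83 per array, of 43379 outside the controls) were left out and spots of a probe averaged. The log2 processed signal was set against each array's 75th percentile, which was 938 to 1574 units in Brg1d/d and 936 to 981 units in Brg1fl/fl. A probe was kept where either genotype had it well above background on its 3 arrays. Spots well above background made up 68.5% to 73.5% per array, and 3 arrays per genotype limit the precision. Of 41174 distinct probes, 23082 were named by accession, 6582 by symbol and 3039 by synonym from a RefSeq gene table, and 8471 kept the array's name. A probe carrying an older Chd2 name but placed on another chromosome was left out. Coordinates and probe sequences are those of the array annotation (mm7), against which no exon annotation was used here.

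The genotypes were compared by two-sided moderated tests in limma 3.58.1 (R 4.3.3; lmFit, eBayes). P-values of the 27841 probes were adjusted by the Benjamini-Hochberg method, and an adjusted p under 0.05 counted as passing. Each gene was represented by its brightest kept probe. The fit was also run on simulated data with independent noise. Those data held no scan day, spike-in, slide or GC effect, so the run does not bear on such effects. Named genes were all members and Smarca4 with every probe, in each partner list the genes that passed or else the one with the smallest p, and the 3 genes closest to the member with the smallest p. The members, lists and tests were chosen with earlier results of these data known. Alternatives were quantile and median scaling, normexp with an offset of 50, other filters, thresholds and eBayes settings, blocks for slide, scan day, spike-in split and replicate number, the mean of a gene's probes, and each array left out. The most downstream probe, the same-day value, and the contrast of the most upstream with the most downstream probe were chosen after seeing the data. So was centring within GC classes 5 percentage points wide. Python 3.11.15 and matplotlib 3.10.9 were used for tables and plots.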

Additional observations from a re-analysis of the deposited data

How the results depend on the processing

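None of the 10 ATPase genes passed by its brightest probe in any alternative tried except the choice of the most downstream probe, with which Smarca5 did, a count of 1. The count of ATPase probes that passed, 1 of 28, became 2 with quantile scaling, normexp, the filter on all 6 arrays, or trend and robust eBayes. It became 0 with no filter, GC centring, the scan day, spike-in or replicate block, the 0.01 threshold or the added 2-fold threshold, and 0 to 5 with an array left out. Of the partner genes, 1 passed, against 3 with normexp or trend and robust eBayes, 0 with median scaling, no filter, any of the 3 blocks or the 0.01 threshold, and 0 to 6 with an array left out. Over all genes 1561 passed, against 642 with no filter, 0 with the scan day block, 116 with the spike-in block, 548 with the replicate block, 260 at 0.01, and 294 to 2511 with an array left out. Over all probes 2564 passed, against 1111, 0, 160, 872 and 394 under the same settings, and 446 to 4710 with an array left out. Same-numbered samples of the genotypes had deviations that correlated at -0.13, 0.08 and 0.09. Brg1d/d 1 correlated best with Brg1fl/fl 3 (0.11), and Brg1d/d 2 and 3 each with the control of the same number. Such small correlations over so few arrays cannot show whether the replicate numbers pair the samples. With the replicate block Smarca5 A_52_P601095 (limma adjusted p = 0.0840) and Mta3 (0.0953) did not pass. The scan day block and the spike-in block each leave only Brg1d/d 2 to estimate the genotype, so they give the same differences and are not separate checks. Where a setting changed a count, the cause was not tested.

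Median scaling moved the median difference of all probes by -0.11, and 8 of the 10 genes were then lower, as with normexp, against 7 with the 75th percentile or quantile scaling. The genes lay 0.24 to 0.36 below that median under the 4 scalings. Differences changed sign in at least 1 alternative at 3 Chd3, 2 Chd4, 2 Chd8 and 2 Ep400 probes, none of which passed. With the median scaling 4 genes had groups that did not overlap, and with quantile scaling 3. Of the Smarca4 probes, none passed with the scan day block (adjusted p = 0.189 to 0.343) or the spike-in block (0.0566 to 0.164).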
